A study of Mus musculus with 4 samples.

Results

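The 10 genes described here encode receptor chains for inflammatory cytokines: Il12rb1, Il12rb2, Il18r1, Il18rap, Il17rb, Ifngr1, Ifngr2, Il6ra, Il6st and Il10ra. The list was chosen by gene function, with earlier results of these data known. All 10 were found among the 21887 protein-coding genes that the RefSeq table places on the mouse autosomes and sex chromosomes. A peak was counted for a gene when its midpoint lay in the gene body or within 50 kb on either side. By this rule 17 of the 4246 peaks of the NKT list and 22 of the 5198 peaks of the PLZF-transgenic list belonged to the receptor genes. The names describe known receptor functions, and peaks on DNA give no measure of whether the genes were expressed.

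The study mapped chromatin bound by PLZF, a zinc finger transcription factor and the product of Zbtb16, in mouse thymocytes. Sonicated nuclei were taken up on streptavidin beads, and the mice carried a PLZF transgene together with a BirA transgene, BirA being a bacterial enzyme that attaches biotin. The NKT library came from mice with the genotype PLZF tg, BirA tg and Valpha14 tg. Valpha14 names the rearranged alpha chain that invariant natural killer T cells use in their antigen receptor. The PLZF-transgenic library, labelled Tg thy, came from mice with PLZF tg and BirA tg alone. All mice were on a C57BL/6 background, the stated cell type of both libraries is thymocytes, and the labels name no sort, age, promoter or number of animals. Each genotype also had an input library, which was not analysed here. With 1 ChIP library per genotype there was no replicate error, no test was made between the libraries, and the values below describe these libraries rather than the genotypes. Mice without the PLZF transgene were not analysed here, so a peak need not be a PLZF site. PLZF was present from a transgene in both libraries.

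Cytokine receptors of this kind work as pairs of chains. A ligand-binding chain such as IL-6 receptor alpha meets a signalling chain such as gp130. In most of these receptors the intracellular part passes the signal to JAK kinases and STAT factors. The IL-18 receptor uses the adaptor MyD88, and IL-17 receptors use the adaptor encoded by Traf3ip2. Natural killer T cells respond rapidly to IL-12 and IL-18 and make interferon gamma, and a subset that carries the IL-25 receptor chain IL-17RB makes type 2 cytokines. PLZF is the factor that gives these cells their innate-like effector program.

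The position of the peaks is given from the gene starts, so RefSeq start regions (GRCm38.p6, the assembly that mm10 names) are shown for 3 genes. Il6st had the highest-scoring peaks among the receptor genes, Ifngr2 had the peak closest to a start, and the Il12rb2 region held letters of a STAT motif. Each runs 5′ to 3′ from 250 bases before the start to 50 after it. Capitals mark matches, searched on both strands and none of them overlapping, to letters bound by RUNX (TGTGGT), STAT (TTCNNNGAA), ETS (CCGGAAG or ACTTCC) or GATA factors (for the last, AGATAA). The regions are chr13:112463820-112464119 on the plus strand (Il6st), chr16:91546809-91547108 on the plus strand (Ifngr2) and chr6:67376139-67376438 on the minus strand (Il12rb2).
Il6st: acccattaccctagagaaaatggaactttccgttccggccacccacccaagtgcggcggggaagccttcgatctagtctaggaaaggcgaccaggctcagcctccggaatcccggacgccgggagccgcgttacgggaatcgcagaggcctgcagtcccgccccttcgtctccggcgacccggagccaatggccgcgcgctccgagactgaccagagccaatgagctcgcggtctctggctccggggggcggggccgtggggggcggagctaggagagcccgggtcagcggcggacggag
Ifngr2: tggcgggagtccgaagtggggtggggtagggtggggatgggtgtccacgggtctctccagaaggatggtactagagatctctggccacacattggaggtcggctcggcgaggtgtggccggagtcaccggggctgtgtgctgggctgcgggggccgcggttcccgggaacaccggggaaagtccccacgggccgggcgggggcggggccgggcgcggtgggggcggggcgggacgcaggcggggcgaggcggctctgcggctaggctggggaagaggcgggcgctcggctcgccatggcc
Il12rb2: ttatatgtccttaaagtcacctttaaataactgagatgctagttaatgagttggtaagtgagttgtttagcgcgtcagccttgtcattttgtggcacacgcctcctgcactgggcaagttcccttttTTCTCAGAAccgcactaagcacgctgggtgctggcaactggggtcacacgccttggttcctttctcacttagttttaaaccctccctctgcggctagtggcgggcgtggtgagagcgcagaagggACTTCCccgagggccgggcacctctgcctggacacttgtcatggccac

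None of these start regions was overlapped by a peak. The table held start regions for 8 of the 10 receptor genes, all except Il12rb1 and Il10ra, and a peak overlapped 0 of the 8 in the NKT list and 0 of the 8 in the PLZF-transgenic list. Over all 17492 protein-coding genes with an entry, a peak overlapped a start region of 2.42% in the NKT list and 3.28% in the PLZF-transgenic list, so a count of 0 among 8 is near the background. The regions of Il6st and Ifngr2 held none of the searched letters and were rich in G and C, at 68.3% and 74.3%, against a median of 52.7% over 32817 start regions. The Il12rb2 region held TTCTCAGAA from 123 bases before the start and ACTTCC just after it. Counting a gene when any of its start regions held the letters, STAT letters were found at 2 of the 8 receptor genes, Il12rb2 and Il18r1, and at 8.92% of the 17492 genes with an entry. The ETS letters ACTTCC were present at 4 of the 8 genes (27.7% of all genes), RUNX letters at 2 (17.2%), GATA letters at 1 (11.2%) and CCGGAAG at 0 (12.9%). Over the 32817 single start regions, the shares were 8.29% for STAT, 23.8% for ACTTCC, 16.8% for RUNX, 11.2% for GATA and 8.86% for CCGGAAG. A match of letters does not show a bound site.

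Peaks near the receptor genes were common to both libraries at 7 of the 10 genes. In the NKT list, 7 of 10 had a peak in their window, where 26.3% of all protein-coding genes had one. In the PLZF-transgenic list, all 10 had a peak in that window, where 30.3% of all genes had one. Both lists held a peak for the same 7 genes, Il12rb1, Il12rb2, Il17rb, Ifngr1, Ifngr2, Il6ra and Il6st, against 20.6% of all genes. Each of these 7 also held at least 1 NKT peak that overlapped a PLZF-transgenic peak, which was so for 17.7% of all genes. The IL-18 receptor genes Il18r1 and Il18rap and the IL-10 receptor gene Il10ra had peaks only among the PLZF-transgenic ones, 3 of 10, where 9.70% of all genes had that pattern. Because the 10 genes were chosen with earlier results of these data known, these counts carry no test. The windows of the receptor genes were 112.7 to 190.3 kb long with a median of 126.8 kb, against a median of 117.2 kb over all protein-coding genes. Il18r1 and Il18rap are neighbours that share a window in part and held the same peak, so the 10 genes stand for 9 separate loci.

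**Figure D1:**
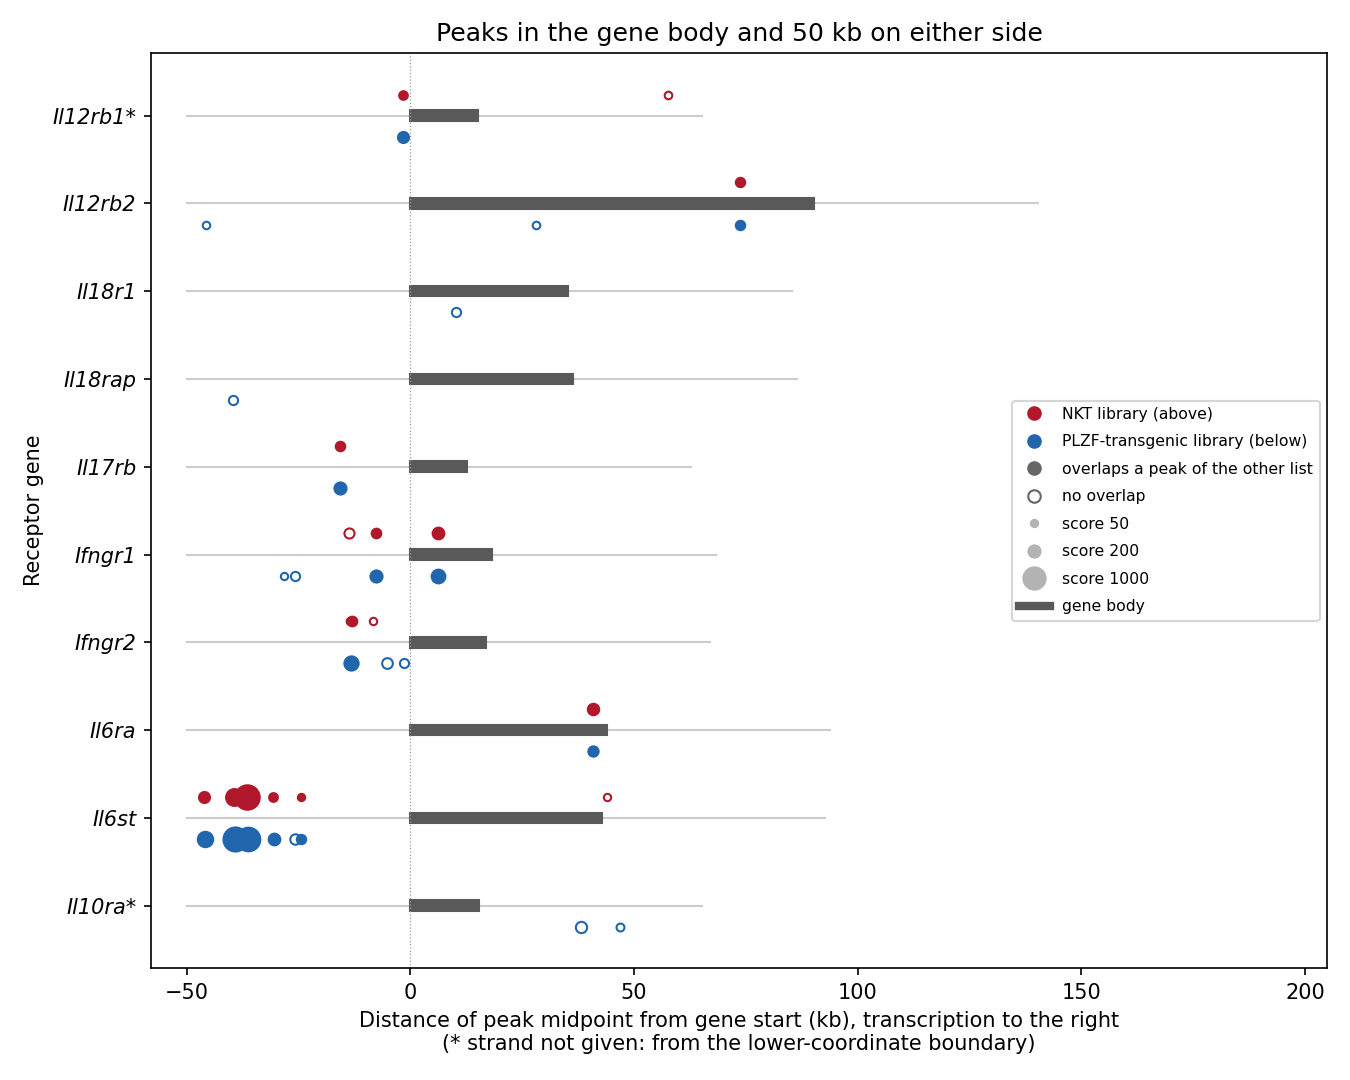
Peak midpoints (horizontal axis, kb from the gene start, or from the lower-coordinate boundary for Il12rb1 and Il10ra, whose strand was not given) in the window of each receptor gene, with the NKT library above and the PLZF-transgenic library below each gene. Circle area grows with the peak score, filled circles overlap a peak of the other list, and the large filled circles lie 36 to 39 kb upstream of Il6st.

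The IL-6 family signalling chain had the most peaks and the highest scores. Il6st encodes gp130, the chain shared by the receptors of IL-6, IL-11, IL-27 and leukaemia inhibitory factor, and lies on the plus strand of chromosome 13 (112464070 to 112506860). The NKT list held 6 peaks in its window and the PLZF-transgenic list 6. Il6st was the only 1 of the 10 receptor genes with at least 6 peaks in either list, a number reached by 0.493% of all protein-coding genes in the NKT list and by 0.859% in the PLZF-transgenic list. Other cytokine receptor genes, listed below for comparison, reached it too. Il21r had 7 NKT peaks and Il2ra 6, with 5 each in the PLZF-transgenic list. Il10rb had 6 PLZF-transgenic peaks and 2 NKT peaks. In both lists, 5 of the 6 Il6st peaks formed a row of overlapping pairs upstream of the gene. Its midpoints ran from 46.0 to 24.5 kb before the start in the NKT list and from 45.9 to 24.5 kb in the PLZF-transgenic list. No peak midpoint of either list lay inside the gene.

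The 2 highest sites of the row lay next to each other. The site 36.5 kb upstream had a score of 1293 in the NKT list (112427134 to 112428052), the 14th of 4246, and of 1180 in the PLZF-transgenic list (112427285 to 112428204), the 33rd of 5198. The site 39.4 kb upstream had a score of 479.6 in the NKT list (112424263 to 112425157), the 82nd, and of 1244 in the PLZF-transgenic list (112424133 to 112425445), the 29th. Both sites were thus among the top 2% of each list. Their order within a list differed: the site nearer to the gene scored higher in the NKT list, and the farther site scored slightly higher in the PLZF-transgenic list. A peak scoring as high as the best Il6st peak lay in the window of 31 genes in the NKT list (0.142%) and of 67 genes in the PLZF-transgenic list (0.306%).

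The flanks of the row had lower scores. The peak 46.0 kb upstream scored 154.7 in the NKT list and 375.3 in the PLZF-transgenic list, and its midpoint lay in the lncRNA gene Gm33905. The peak 30.8 kb upstream scored 83.7 in the NKT list and 180.1 in the PLZF-transgenic list. The peak 24.5 kb upstream scored 51.5 in the NKT list and 99.7 in the PLZF-transgenic list. Scores were thus lower towards both ends of the row than at its central pair of sites, in both libraries. The peaks without an overlap were an NKT peak 1.09 kb beyond the 3′ end of the gene with a score of 51.5 and a PLZF-transgenic peak 25.8 kb upstream with a score of 132.6, which lay 1.1 kb from the nearest NKT peak. Il6st was the nearest protein-coding gene of every one of these peaks except the outermost, which lay closer to Ankrd55, 34043 bp away in the NKT list and 34144 bp in the PLZF-transgenic list. Il31ra, the gene of the gp130-like IL-31 receptor chain, is the only other protein-coding gene whose body reaches into the window.

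**Figure D2:**
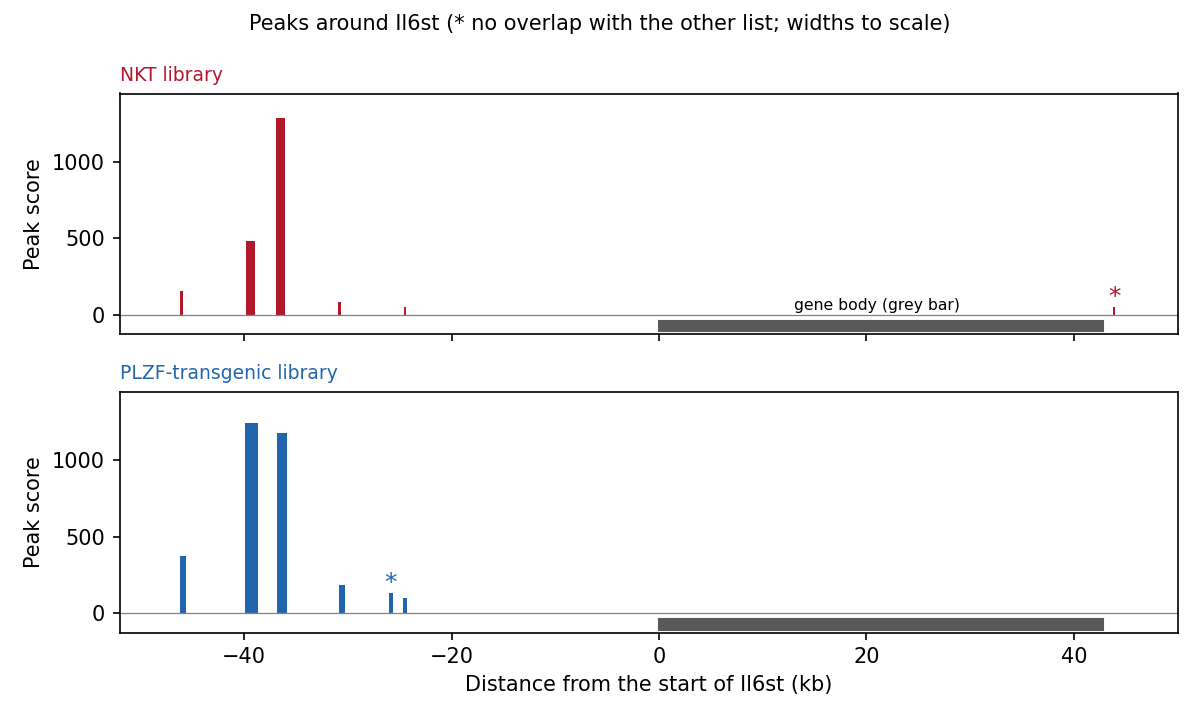
Peak score (vertical axis, the authors' value) against the distance from the start of Il6st in kb, for the NKT library above and the PLZF-transgenic library below; bar widths are the peak widths to scale, the grey bar is the gene body and an asterisk marks a peak without overlap in the other list. The tallest bars stand 36.5 kb upstream in the NKT library (1293) and 39.3 kb upstream in the PLZF-transgenic library (1244).

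The ligand-binding partner of gp130 had a single site. Il6ra encodes the IL-6 receptor alpha chain and lies on the minus strand of chromosome 3 (89869324 to 89913196). Its peak scored 170.6 in the NKT list (89872103 to 89872617) and 128.4 in the PLZF-transgenic list (89872174 to 89872660). It lay inside the gene near the 3′ end, 40.8 kb from the start in both lists, where the lncRNA gene Gm46811 overlaps Il6ra. This was the 659th score of the NKT list and the 2253rd of the PLZF-transgenic list. Il6ra and the Il6st site 36.5 kb upstream were the only 2 of 13 overlapping pairs at the receptor genes in which the NKT score was the higher number. Over all 2603 overlapping pairs of the lists the NKT score was higher in 18.1%, and with the depth of the libraries unknown this does not measure a difference in binding.

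Both interferon gamma receptor genes had sites upstream that the lists shared. Ifngr1 encodes the ligand-binding chain and lies on the plus strand of chromosome 10 (19591949 to 19610229). A peak inside the gene, 6.26 kb from the start, scored 182.5 in the NKT list (19597928 to 19598483) and 276.7 in the PLZF-transgenic list (19597928 to 19598566), and began at the same base in both. A second shared peak 7.74 kb upstream scored 107.8 in the NKT list (19584082 to 19584338) and 198.5 in the PLZF-transgenic list (19583887 to 19584538), with midpoints 2 bp apart. Farther upstream the lists differed. The NKT list had a peak 13.7 kb upstream with a score of 122.6, higher than that of its shared upstream peak, and the nearest PLZF-transgenic peak was 5.52 kb away. The PLZF-transgenic list had peaks 25.8 and 28.1 kb upstream with scores of 96.0 and 51.5, and the nearest NKT peak was 11.7 kb from the closer of them. Among the 4 NKT peaks at the receptor genes without an overlap, the one at Ifngr1 was the only one above the median score of the NKT list. Ifngr1 was the nearest protein-coding gene of all 7 peaks.

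Ifngr2, the signalling chain of the same receptor, lies on the plus strand of chromosome 16 (91547059 to 91564007), and all of its peaks were upstream. A site about 13.1 kb upstream was a pair of NKT peaks, 232 bp wide with a score of 110.0 (91533816 to 91534047) and 175 bp wide with a score of 59.2 (91533543 to 91533717). In the PLZF-transgenic list it was a single peak of 621 bp with a score of 304.9 (91533588 to 91534208). Nearer to the gene no peak was shared. The NKT list had a peak 8.41 kb upstream with a score of 53.6, close to the lowest score of that list, 50.02. The PLZF-transgenic list had a peak 5.15 kb upstream with a score of 144.2 and a peak 1.43 kb upstream with a score of 92.9. The edge nearest to the Ifngr2 start was thus 8.32 kb away in the NKT list and 1.26 kb away in the PLZF-transgenic list, and that PLZF-transgenic edge was the closest of any peak to a listed start among the 8 receptor genes. Ifnar1, a chain of the type I interferon receptor, lies on the far side of these peaks, and Ifngr2 was the nearest protein-coding gene of all 6.

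The IL-12 receptor genes each had 1 shared site of moderate score. Il12rb1 encodes the chain shared with the IL-23 receptor and lies on chromosome 8 (70808360 to 70823542). Its shared peak lay in the gap between Il12rb1 and Mast3, 1.59 kb from the Il12rb1 boundary, with a score of 81.1 in the NKT list (70806656 to 70806888) and 155.0 in the PLZF-transgenic list (70806540 to 70806954). The strand of Il12rb1 was not given by the tables used, so its start and end were not told apart. Its window is crowded, with 8 other protein-coding genes, and a further NKT peak with a score of 57.7 lay 42.4 kb away and only 253 bp from Kcnn1. Il12rb2 encodes the chain that signals through STAT4 and lies on the minus strand of chromosome 6 (67285986 to 67376293). Its shared peak inside the gene lay 73.6 kb from the start. It scored 100 in the NKT list (67302522 to 67302802), the 1482nd of 4246. In the PLZF-transgenic list (67302490 to 67302813) it scored 101.7, the 2827th of 5198 and below that list's median of 110.8. The PLZF-transgenic list alone had a peak of 57.2 inside the gene and a peak of 55.6 located 45.8 kb upstream. The upstream peak lay 880 bp from Il23r, the gene of the IL-23 receptor chain that pairs with IL-12 receptor beta 1.

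The IL-18 receptor genes had no NKT peak in their windows. Il18r1 encodes the ligand-binding chain and lies on the plus strand of chromosome 1 (40465552 to 40500854), followed by Il18rap (40515362 to 40551707), which encodes the accessory chain. The single PLZF-transgenic peak (40475655 to 40476041) had a score of 96.7, below that list's median of 110.8. It lay inside Il18r1, 10.3 kb from its start and 39.5 kb upstream of Il18rap. The nearest NKT peak midpoint lay 529.0 kb from Il18r1 and 578.9 kb from Il18rap, far outside every window tried. Il10ra, the ligand-binding chain of the IL-10 receptor on chromosome 9 (45253837 to 45269149), had no NKT peak and had PLZF-transgenic peaks 22.9 and 31.5 kb beyond its higher-coordinate boundary with scores of 164.9 and 64.2, the second of them nearer to Tmprss13. The first of these was the highest score among the 10 PLZF-transgenic peaks at the receptor genes without an overlap. Just outside the window, an NKT peak with a score of 138.1 lay 64.4 kb from Il10ra on the other side, and a PLZF-transgenic peak with a score of 52.5 lay 57.2 kb away. Just inside the limit were the Il6st sites 46.0 kb upstream.

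Il17rb, the IL-25 receptor chain, lies on the minus strand of chromosome 14 (29996168 to 30008896) and had 1 peak in each list. The peak scored 103.1 in the NKT list (30024400 to 30024700) and 198.4 in the PLZF-transgenic list (30024283 to 30024741). It lay 15.7 kb upstream of Il17rb in the NKT list and 15.6 kb in the PLZF-transgenic list, inside the neighbouring gene Chdh, which encodes choline dehydrogenase. By nearest gene this site belongs to Chdh and not to Il17rb.

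**Figure D3:**
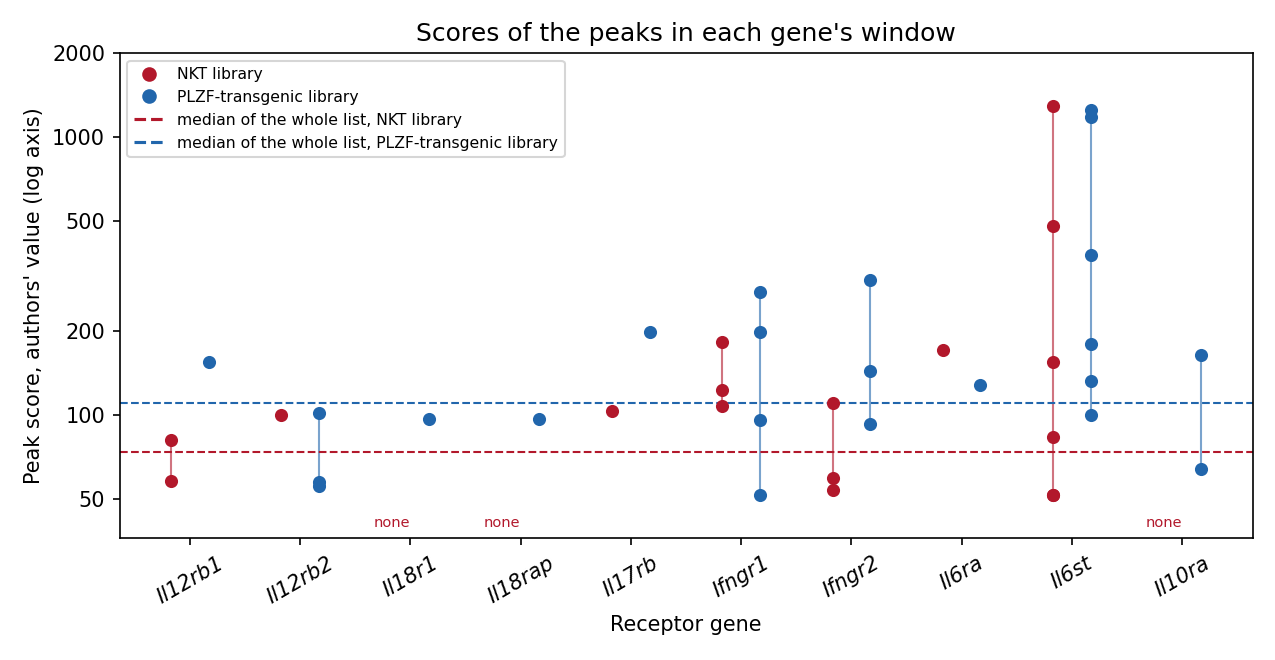
Score of every peak in the window of each receptor gene (vertical log axis, the authors' value), with the NKT library left and the PLZF-transgenic library right; lines join the peaks of 1 gene and dashed lines are the medians of the whole lists, 73.8 for NKT and 110.8 for PLZF-transgenic. The highest Il6st peaks stand above all peaks of the other genes in both libraries, while its lowest peaks lie below the medians. Il18r1, Il18rap and Il10ra have no NKT point.

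Peaks outside the receptor genes lay mostly upstream. Of the 12 NKT gene and peak pairs outside gene bodies at genes of known strand, 11 were upstream and 1 downstream, and in the PLZF-transgenic list 15 were upstream and 0 downstream. Il6st alone gave 5 of the 11 (NKT) and 6 of the 15 (PLZF-transgenic), and the peak inside Il18r1 counts once as upstream of Il18rap. Over all protein-coding genes of known strand, 51.2% of 6246 such pairs in the NKT list and 52.4% of 7702 in the PLZF-transgenic list were upstream. The difference was not tested, and peaks of 1 gene are not independent. Inside a receptor gene were 3 of 17 NKT peaks and 5 of 22 PLZF-transgenic peaks. A receptor gene was the nearest protein-coding gene of 14 of the 17 NKT peaks and of 18 of the 22 PLZF-transgenic peaks.

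Overlap between the libraries was counted in each direction. At the receptor genes, 13 of 17 NKT peaks (76.5%, exact 95% interval 50.1 to 93.2%) and 12 of 22 PLZF-transgenic peaks (54.5%, 32.2 to 75.6%) met a peak of the other library. Over the whole lists the shares were 60.7% (NKT) and 45.7% (PLZF-transgenic), which lie within those intervals. The intervals cover counting error only and treat the peaks as independent. They are not: 5 of the 13 NKT peaks with an overlap lay in the Il6st row. At Ifngr2, 2 NKT peaks met the same PLZF-transgenic peak. Being within the intervals is thus no test. The peaks had a median score of 103.1 in the NKT list and 138.4 in the PLZF-transgenic list, where the whole lists had 73.8 (NKT) and 110.8 (PLZF-transgenic). Peaks with an overlap had median scores of 107.8 in the NKT list and 198.5 in the PLZF-transgenic list, near those of all overlapping peaks, 103.5 (NKT) and 190.2 (PLZF-transgenic). Peaks without one had medians of 55.6 (NKT) and 94.5 (PLZF-transgenic), where the whole lists had 57.8 (NKT) and 83.8 (PLZF-transgenic). Overlapping peaks lay closely on each other, with midpoints 2 to 268 bp apart and a median of 42 bp over the 13 pairs, against 63.0 bp over all 2603 pairs. The NKT peak was the wider in 1 of the 13 pairs, at Il6ra, and in 8.72% of all pairs.

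**Figure D4:**
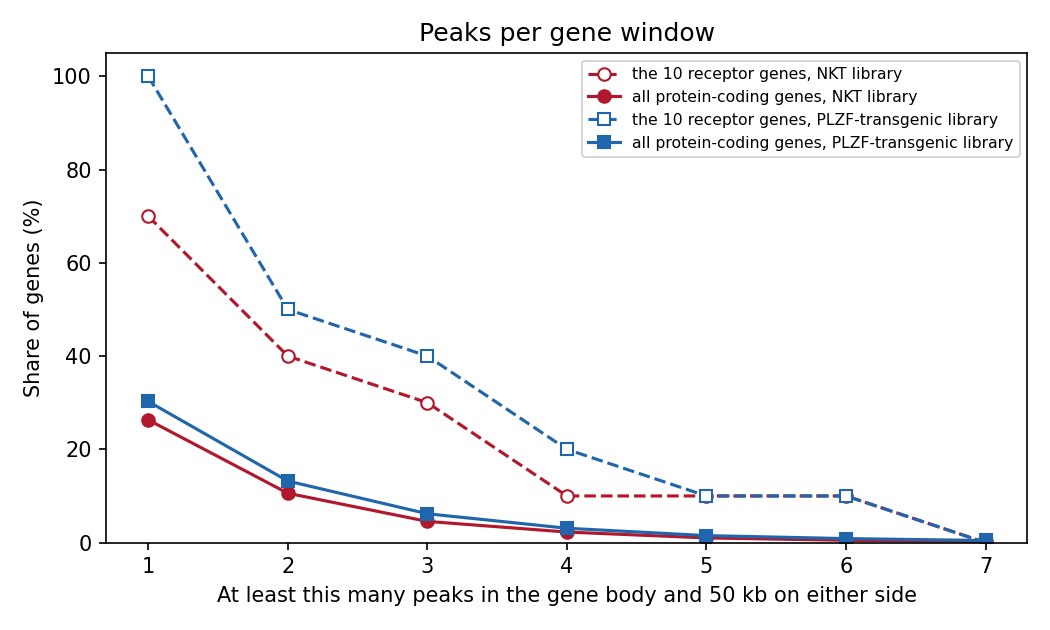
Share of genes (vertical axis, %) with at least the number of peaks on the horizontal axis in the gene body and 50 kb on either side, for the 10 receptor genes (dashed, open symbols) and all 21887 protein-coding genes (solid, filled symbols). The receptor genes lie above all genes up to 6 peaks in both libraries, and from 5 peaks on the dashed lines rest on Il6st alone.

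Genes that work with these receptors were listed for comparison: 8 ligand genes including the decoy Il18bp, 5 further receptor chains and 13 signalling genes. Of these 26 genes, 14 had a peak in the NKT list and 16 in the PLZF-transgenic list, and 12 had one in both, beside the 26.3%, 30.3% and 20.6% of all genes given above. Signalling genes had peaks at 8 of 13 in the NKT list and 9 of 13 in the PLZF-transgenic list, the further receptor chains at 3 of 5 (NKT) and 5 of 5 (PLZF-transgenic), and ligand genes at 3 of 8 (NKT) and 2 of 8 (PLZF-transgenic). Among the ligand genes, Ifng, Il6, Il10, Il25 and the decoy Il18bp had no peak in their windows in either list. The same held for the signalling genes Myd88, Irak1 and Irak4. Highest in the NKT list were Socs3, an inhibitor of gp130 signalling, with 416.9 (653.5 in the PLZF-transgenic list), the transcription factor gene Stat3 with 211.6 (302.1), the ligand gene Il12b with 144.5 (126.9) and the kinase gene Jak1 with 142.7 (320.1). At Jak1 the best peaks of the lists were different sites, 101187337 to 101187798 (NKT) and 101167547 to 101168231 (PLZF-transgenic). Peaks were listed in the NKT list alone at Il18 (57.6) and Traf3ip2 (57.2), an adaptor of IL-17 receptors. Peaks in the PLZF-transgenic list alone were highest at the kinase genes Jak2 (113.4) and Tyk2 (103.1). Il1rl1 and Il23r also had PLZF-transgenic peaks alone, and these were the peaks already given for Il18r1 and Il12rb2.

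The common gamma chain receptors, which bind IL-2, IL-4, IL-7 and related cytokines, were counted in the same way. Of 8 genes, 5 had a peak in the NKT list and 6 in the PLZF-transgenic list, and all 5 were among the 6. Of all protein-coding genes, 26.3% (NKT), 30.3% (PLZF-transgenic) and 20.6% (both) had one. Il2rg and Il2rb had no peak in either list. The best Il15ra peak of each list lay inside its neighbour Il2ra, so these genes are not all separate loci. Il4ra scored 359.1 in the NKT list, the highest there among these genes, and 412.7 in the PLZF-transgenic list, and its neighbour Il21r held the same peak. The best Il2ra peak scored 138.5 in the NKT list and 511.8 in the PLZF-transgenic list, the highest there, and Il9r had 101.1 and 129.0 in that order. Il7r had only a PLZF-transgenic peak, 45.0 kb away, of score 94.3. The best Il6st scores were above all of these in both lists. In number of NKT peaks, Il2ra with 6 equalled Il6st with 6, and Il21r had 7. No test of the difference between the gene lists was made.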

How the data were processed

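Peak lists of 2 streptavidin ChIP libraries from mouse thymocytes, 1 NKT and 1 PLZF-transgenic, were analysed, and the 2 input libraries were not used here. Bowtie, Picard, HOMER and the build mm10 are named, per the submitters' processing notes. Tool versions and any control for the peaks are not stated there. The authors deposited 1 score per peak, in the last of 5 columns without a header. Peak names begin with MACS, whose early versions wrote a scaled log p-value there, but no source used here gives the scale. Read counts were not used, so depth is unknown, scores were read within a list, and scores of both lists are set side by side as descriptions.

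Coordinates were made 1-based by adding 1 to each start. Genes came from RefSeq (GRCm38.p6), without exons, and strands from its table of start regions, which held 8 of the 10 genes. Peaks of both lists with at least 1 bp in common were called shared. Shares have exact (Clopper-Pearson) 95% intervals. Counting was checked on simulated peaks. All 10 genes and every peak in their windows are named. From the comparison lists, up to 4 genes with a peak in both libraries and up to 2 per library with a peak in 1 only are named. Genes without a peak, Il15ra, Il1rl1 and Il23r were added after their values were seen. The genes and lists were chosen with earlier results of these data known. Alternatives were windows of 0, 5 and 100 kb, any overlap with the window, the nearest gene, the top 50% of each list, a score of at least 100, 50% reciprocal overlap and midpoints within 1 kb. Python 3.11.15, pandas 2.3.3 and scipy 1.17.1 were used.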

Additional observations from a re-analysis of the deposited data

How the results depend on the processing

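Of 81 alternative values, 55 were within 1.5 times the main count and 26 were not. Narrower windows lowered all counts, since most peaks lay outside gene bodies. With gene bodies alone, 3 receptor genes had an NKT peak, 4 a PLZF-transgenic peak and 3 both, with 3 NKT and 5 PLZF-transgenic peaks, of which 3 and 3 were shared; all protein-coding genes then had a peak in 7.18% (NKT) and 8.37% (PLZF-transgenic). Partner genes with a peak were then 6 (NKT) and 6 (PLZF-transgenic), and common gamma receptor genes 3 (NKT). With 5 kb on either side, 6 receptor genes had a PLZF-transgenic peak and 4 had both, with 5 NKT and 7 PLZF-transgenic peaks, of which 4 and 4 were shared, and all protein-coding genes had a peak in 10.8% (NKT) and 13.1% (PLZF-transgenic); partner genes were 6 (NKT) and 9 (PLZF-transgenic) and common gamma receptor genes 3 (NKT). The share of all genes with a peak in both lists was not counted for the alternatives. The Il6st row lies outside both of these windows. By nearest gene, partner genes with an NKT peak were 9, where 11.3% of all genes had one. A score of at least 100 left 10 NKT and 14 PLZF-transgenic peaks at the receptor genes and 7 partner genes in the NKT list. Of all genes, 11.6% then had an NKT peak. The top 50% of each list left 13 PLZF-transgenic peaks at the receptor genes and 9 partner genes in the NKT list, where 15.8% of all genes had an NKT peak. Reciprocal overlap of 50% left 8 NKT peaks at the receptor genes shared. The whole-list share was not counted by that definition, so the fall cannot be called particular to these genes. The count of receptor genes with a peak ranged from 3 to 8 in the NKT list and from 4 to 10 in the PLZF-transgenic list over all alternatives, while the share of all genes ranged from 7.18% to 37.2% (NKT) and from 8.37% to 41.7% (PLZF-transgenic); with 100 kb on either side, Il10ra was the gene added to the NKT count. The top 50% by score removed Il12rb2, Il18r1 and Il18rap from the PLZF-transgenic count. The depth is unknown, so a peak missing from a list is not shown to be absent from the cells. No paired analysis was possible because each group had 1 library.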
